A study of Mus musculus with 15 samples.

Results

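Germinal vesicle (GV) oocytes of follicles cultured for 6 days (IVG_d6) were compared with GV oocytes grown in vivo (IVV). The comparison was chosen by its groups and rests on 6 of the 15 libraries of the series, 3 of IVG_d6 (replicates 1, 2 and 3) and 3 of IVV (replicates 2, 3 and 4), and on 20206 of the 55401 genes in the files, those with enough counts to test. All oocytes came from ovaries of Kunming mice. The IVG_d6 oocytes came from preantral follicles, dissected from mice 12 to 14 days of age and cultured for 6 days without NT-4. NT-4 is a neurotrophin that other groups of the series received. The IVV oocytes were released from antral follicles that had grown in the ovary, and the age of their donors is not given in the sources used here. Culture, days of growth and follicle stage therefore differed together between IVG_d6 and IVV, and their parts cannot be told apart. Each library was a pool of 6 oocytes amplified with SMART-Seq2, which copies RNA from its poly(A) tail. The 3 libraries of a group came from replicated experiments.

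A GV oocyte is arrested in the first meiotic prophase. While it grows, it fills with mRNA and protein that will serve maturation and the first divisions of the embryo, and transcription falls silent when growth ends. It depends on its granulosa cells, which pass pyruvate, amino acids and cyclic nucleotides to it through gap junctions and bind its growth factors GDF9 and BMP15. Culture of preantral follicles is meant to bring such oocytes to full growth outside the ovary.

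Total counts were 23.7 to 55.6 M per library in IVG_d6 and 19.03 to 43.5 M in IVV. In IVG_d6, 15483 to 22163 genes had a count, and in IVV 22231 to 22966. The libraries were of 2 kinds. The annotated rRNA gene CT010467.1 took 19.2% and 28.7% of counts in IVG_d6 replicates 1 and 2 and 37.9% in IVV replicate 3 (rRNA-rich), against 0.187% to 0.396% in IVG_d6 replicate 3 and IVV replicates 2 and 4 (rRNA-poor). Principal component 1, with 48.4% of the variance of 15647 variable genes, held the rRNA-rich libraries between -231.6 and -86.24 and the rRNA-poor libraries between 108.1 and 167.3. Spearman correlations were 0.821 and 0.849 between IVV replicate 3 and the rRNA-rich IVG_d6 libraries, 0.924 and 0.928 between IVG_d6 replicate 3 and the rRNA-poor IVV libraries, and 0.774 and 0.768 between IVV replicate 3 and the other IVV libraries. The kinds were unequal between the groups. Each gene was therefore tested in a model that held the group and also the kind of library (kind fit). The values of IVG_d6 replicates 1 and 2 were read against IVV replicate 3, and those of IVG_d6 replicate 3 against IVV replicates 2 and 4. A gene was called in order when it kept 1 direction in both of these readings.

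Differentially expressed genes (DEGs) were those whose log2 fold change was over 1 in size and whose unadjusted P was under 0.05. By this threshold 1904 of 20206 genes were DEGs (9.42% of the genes tested), 685 higher (3.39%) and 1219 lower (6.03%) in IVG_d6 than in IVV. After Benjamini-Hochberg adjustment over all genes, 7 genes (0.0346%) kept an adjusted p under 0.05 in edgeR's quasi-likelihood test. DESeq2's Wald test of the same design, with adjustment after its own filter on low counts, gave 996. The DEGs in the 2 directions were not alike in level. Levels are normalized CPM, counts scaled to a common library size. Higher DEGs stood at a median of 16.7 CPM, with 1.60 as their median log2 fold change. Lower DEGs stood at a median of 1.52 CPM, with -5.54 as theirs, and 470 of them had a count of 0 in all 3 IVG_d6 libraries. Of the 20206 genes tested, 762 were at 0 in all IVG_d6 but not all IVV libraries, and 150 the reverse. Of the higher DEGs, 61 were at 0 in all 3 IVV libraries. Genes at 0 in a whole group passed the filter on low counts through other groups. Among the 8416 genes with a mean of at least 10 CPM the balance turned, with 427 higher and 200 lower DEGs. Left out alone, IVG_d6 replicate 3 moved the number of DEGs from 1904 to 2965. In a fit without the kind of library, 1419 genes were DEGs (7.02%), 573 higher (2.84%) and 846 lower (4.19%), and 389 and 729 of them were shared with the kind fit. In it 0 genes had an adjusted p under 0.05 by edgeR's quasi-likelihood test, while 1436 (7.11%) were below 0.05 before adjustment. Of adjusted p under 0.05 there were 253 by DESeq2, which adjusts after its own filter on low counts. There were 56 by edgeR's exact test, run on the 6 libraries of the 2 groups alone, with 17636 genes.

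The 12 protein-coding genes that led the higher DEGs, by P among genes of at least 10 CPM that were in order, had log2 fold changes of 1.05 to 3.61. In order within both kinds were 542 of the higher DEGs (2.68% of genes tested). Values are given below as normalized CPM, in the order of replicates 1, 2 and 3 of IVG_d6 and 2, 3 and 4 of IVV, so that the middle IVV value is the rRNA-rich one, and brackets after them hold the log2 fold change with its SE and the adjusted p of the kind fit. DEG calls rest on the unadjusted P. Where a value without 1 library is given, it is the log2 fold change then found. Atp8a2, a flippase that moves phospholipids across membranes, had 13.2, 18.9 and 64.96 in IVG_d6 and 5.60, 0.975 and 9.05 in IVV, a log2 fold change of 3.39 ± 0.39 (SE), adjusted p = 0.0139. Resf1, which takes part in silencing of retroelements, had 442, 534 and 60.4 in IVG_d6 and 8.42, 102 and 7.44 in IVV (2.56 ± 0.32 (SE), adjusted p = 0.0139). Syvn1, the ubiquitin ligase of endoplasmic reticulum associated degradation, had 626, 493 and 62.8 in IVG_d6 and 20.4, 107 and 16.6 in IVV (1.97 ± 0.25 (SE), adjusted p = 0.0139). In these genes the IVG_d6 value was above the IVV value of its kind in every case, but for Resf1 and Syvn1 the rRNA-poor IVG_d6 library lay below the rRNA-rich IVV library. Mgat4a, which branches N-glycans, had 272, 252 and 62.6 in IVG_d6 and 24.7, 78.8 and 19.7 in IVV (1.65 ± 0.24 (SE), adjusted p = 0.0447). These 4 were the leading higher genes with an adjusted p under 0.05, and all 12 kept the call when any 1 library was left out.

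Of the other 8 leading higher genes, the groups did not overlap in 5 (827 of all genes tested had every IVG_d6 value above every IVV value, 4.09%). The choice of these genes by P and by order within kinds favours groups that lie apart. Trpv3, a calcium-permeable channel of the oocyte membrane, had 77.8, 72.5 and 7.75 in IVG_d6 and 2.39, 7.32 and 1.66 in IVV (2.67 ± 0.44 (SE), adjusted p = 0.0831). C1qtnf12, a secreted protein of the C1q and TNF family, had 31.4, 69.9 and 40.03 in IVG_d6 and 8.14, 7.62 and 13.4 in IVV (2.35 ± 0.39 (SE), adjusted p = 0.0831). Mtfr2, a regulator of mitochondrial fission, had the highest mean over the 6 libraries and the smallest fold of the 12, with 561, 517 and 460.3 in IVG_d6 and 219, 284 and 204 in IVV (1.05 ± 0.19 (SE), adjusted p = 0.113). Its 3 IVG_d6 values all lay above the 3 IVV values. Bhlhe40, a transcriptional repressor, had 92.6, 153 and 26.5 in IVG_d6 and 8.76, 39.8 and 5.47 in IVV. Cbll1, a ubiquitin ligase that also belongs to the m6A writer complex, had 45.98, 66.6 and 23.2 in IVG_d6 and 8.95, 9.75 and 8.45 in IVV. Ankrd52, a subunit of protein phosphatase 6, was higher in the kind fit only: it had 306, 262 and 11.3 in IVG_d6 and 2.81, 125 and 2.37 in IVV, and without the kind of library in the fit its log2 fold change was 2.16 and it was no DEG. Sp140 and Zfp707, nuclear proteins, completed the 12, with log2 fold changes of 1.85 and 3.61. Beside the coding genes, the mitochondrial leucine tRNA mt-Tl1 had 101, 64.5 and 3.56 in IVG_d6 and 1.30, 11.1 and 1.34 in IVV (2.21 ± 0.41 (SE), adjusted p = 0.118), and the unnamed genes Gm5065 and 2610021A01Rik had log2 fold changes of 2.005 and 1.98. The 75 bases of mt-Tl1 end directly before mt-Nd1 on the same strand. Which transcripts gave the counts of mt-Tl1 in these poly(A)-primed libraries was not tested.

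Among the 12 leading lower genes, log2 fold changes ran from -8.57 to -1.67, and in 11 the 3 IVG_d6 values all lay below the 3 IVV values (1584 genes did so, 7.84% of those tested). Here too the choice by P and by order favours groups that lie apart. In order within both kinds were 947 of the lower DEGs (4.69% of genes tested). Ccnd2, cyclin D2, which drives entry into the cell cycle and is a well-known product of granulosa cells, had 5.16, 4.49 and 7.92 in IVG_d6 and 80.2, 158 and 103 in IVV, a log2 fold change of -4.26 ± 0.53 (SE), adjusted p = 0.0139. Inhbb, the beta B subunit of activin and inhibin and also made by granulosa cells, had 0, 0 and 0.182 in IVG_d6 and 20.2, 47.5 and 32.5 in IVV (-8.57 ± 1.48 (SE), adjusted p = 0.104). Ldha, the A subunit of lactate dehydrogenase, had 1.49, 5.05 and 1.91 in IVG_d6 and 41.7, 59.1 and 42.1 in IVV (-4.19 ± 0.86 (SE), adjusted p = 0.140). On day 10 of culture these 3 genes stood at 34.4, 95.99 and 87.2 CPM (Ccnd2), 0.555, 41.3 and 24.3 CPM (Inhbb) and 2.64, 48.1 and 21.03 CPM (Ldha) in the 3 libraries without NT-4, so that replicates 2 and 3 were far above every IVG_d6 library. The summed granulosa and cumulus markers in those day 10 libraries were 103.9, 393 and 274 CPM, highest in replicates 2 and 3. Ccnd2 in day 10 replicate 1 was above every IVG_d6 library as well. The markers in that library were below those of IVG_d6 replicates 1 and 2 (122 and 159 CPM). Markers of granulosa and cumulus cells, summed, were lower in each IVG_d6 library (56.5 to 159 CPM) than in each IVV library (189 to 272 CPM), and the part of such cells in the values of these genes was not tested. Zeb2, a transcription factor, and 4931408C20Rik had no count in any IVG_d6 library and 1.24, 18.7 and 2.26 CPM and 12.8, 5.36 and 14.00 CPM in IVV. Against a floor of 3 counts over the group they were at least 162-fold lower and at least 464-fold lower (adjusted p = 0.00623 and adjusted p = 0.0139), and with Ccnd2 they were the lower genes past the adjusted threshold. They were chosen for that after their values were seen.

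Mt1, a metallothionein that binds zinc and copper, had 0, 0 and 0.605 in IVG_d6 and 86.3, 1.28 and 103 in IVV (-7.31 ± 1.46 (SE), adjusted p = 0.132); the rRNA-rich IVV library was the low one. Dcpp1, a secreted protein, had 0, 0 and 0.378 in IVG_d6 and 85.4, 5.67 and 72.1 in IVV. Its neighbour Dcpp2 had 0, 0 and 0.272 in IVG_d6 and 60.9, 3.84 and 54.2 in IVV. Their annotated loci overlap, and the division of reads between them is uncertain. Rrp1, a factor of ribosomal RNA processing, had 9.57, 8.18 and 4.16 in IVG_d6 and 11.7, 31.9 and 13.5 in IVV (-1.70 ± 0.36 (SE), adjusted p = 0.151). Ivns1abp, an actin-binding protein, had 10.5, 5.40 and 3.36 in IVG_d6 and 20.4, 43.1 and 24.8 in IVV (-2.66 ± 0.42 (SE), adjusted p = 0.0831). Cyth1, an activator of ARF proteins, had 7.33, 3.03 and 53.2 in IVG_d6 and 148, 21.8 and 155 in IVV, with groups that overlapped until the kinds were separated. Without the kind of library in the fit its log2 fold change was -2.35 and it was no DEG. Among other transcripts, Snora47, a small nucleolar RNA, had 0.249, 0 and 1.24 in IVG_d6 and 39.5, 2.87 and 48.1 in IVV (-4.61 ± 0.97 (SE), adjusted p = 0.142), and Gm47918 and Gm45663 had log2 fold changes of -1.72 and -1.81. Snora47, of 138 bases, lies within the locus of Zbed3 on the same strand. Zbed3 had 6622, 6456 and 4509 in IVG_d6 and 4118, 5246 and 4717 in IVV. SMART-Seq2 copies RNA from its poly(A) tail, and which transcripts gave the counts of Snora47 was not tested. The remaining 3 leading lower genes were histone genes.

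**Figure D1:**
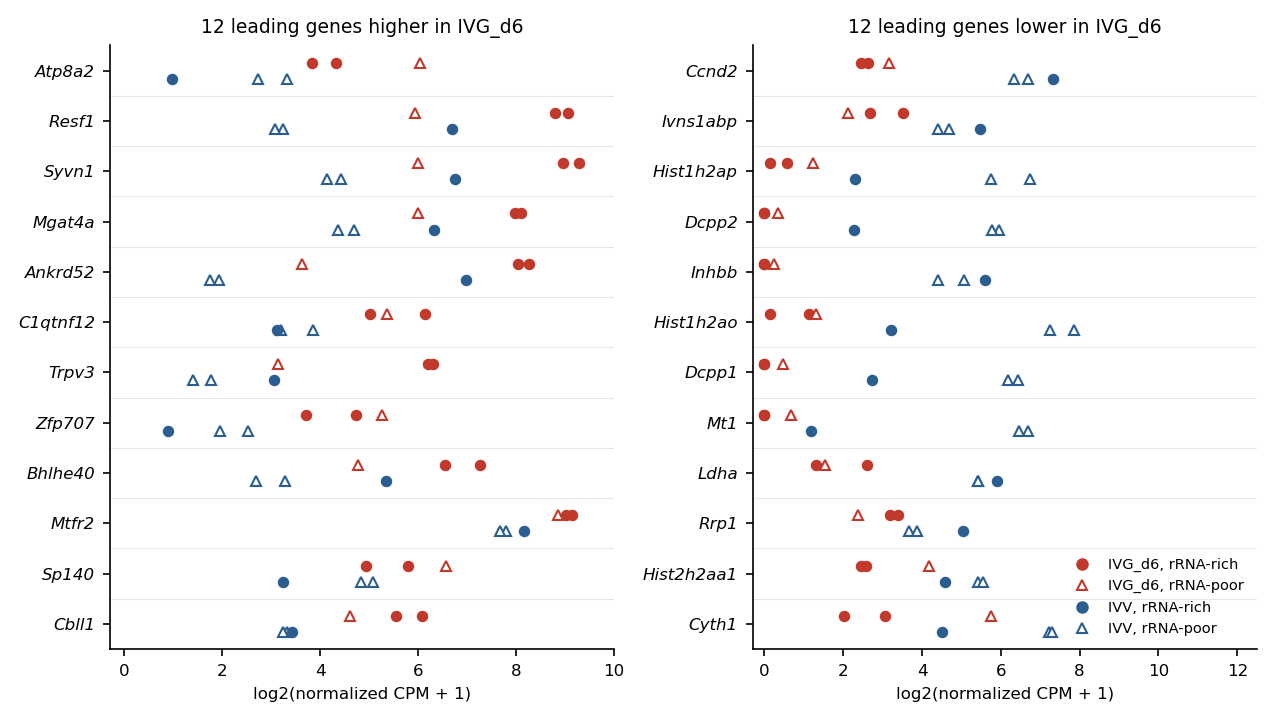
Levels of the 12 leading genes higher and the 12 leading genes lower in IVG_d6, as log2(normalized CPM + 1), 1 point per library (red, IVG_d6; blue, IVV; filled circles, rRNA-rich; open triangles, rRNA-poor). Circles lie apart from circles and triangles from triangles in every gene, by the rule that chose them, while circles and triangles of 1 group can lie far apart, as for Resf1 and Ankrd52.

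Replication-dependent histone genes encode the histones made in S phase. Their mRNAs end in a conserved stem-loop in place of a poly(A) tail, and in oocytes the stem-loop binding protein holds them for the embryo. SMART-Seq2 copies RNA from its poly(A) tail, so counts of these genes may not measure the mRNAs that end in the stem-loop. Which histone transcripts gave the counts was not tested. Of 64 genes listed, 60 were tested and 11 were lower and 0 higher, against 6.03% lower and 3.39% higher among all genes. The median log2 fold change of the 60 was -1.68, against -0.06 over all genes tested, and it was -1.09 within the rRNA-rich and -1.35 within the rRNA-poor libraries. In order were 26 lower and 1 higher (16.3% and 13.1% of all genes tested). Summed over the 64 genes, the libraries held 176, 1079 and 292 CPM in IVG_d6 and 866, 740.1 and 821 CPM in IVV. IVG_d6 replicate 2 was thus the highest of the 6, and the sum did not separate the groups.

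The stem-loops of the leading histone genes are shown because the mRNAs of this family share them. The annotated transcripts run on past the stem-loop, by 3 bases in Hist1h2ap, 365 in Hist1h3f and 770 in Hist1h4d. They were read from GENCODE vM21 transcripts (GRCm38), 5′ to 3′ on the sense strand by the 16-base consensus of the histone stem-loop with 6 paired bases on each side of the loop. They are printed with up to 5 flanking bases in lower case and the 16 bases of the stem-loop in capitals.
Hist1h2ap: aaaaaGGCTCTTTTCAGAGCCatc
Hist1h2ao: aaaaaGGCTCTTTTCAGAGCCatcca
Hist2h2aa1: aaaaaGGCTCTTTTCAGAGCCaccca
Hist1h3f: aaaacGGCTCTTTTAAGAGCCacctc
Hist1h4d: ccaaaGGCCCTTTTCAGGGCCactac
Hist1h2ad: acaaaGGCTCTTTTCAGAGCCatcca
Hist1h3b: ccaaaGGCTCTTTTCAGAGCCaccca
Hist1h2ag: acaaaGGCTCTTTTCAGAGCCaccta
The genes lie at chr13:21833026-21833507, minus strand (Hist1h2ap), chr13:21810465-21810944, plus strand (Hist1h2ao), chr3:96245497-96246082, plus strand (Hist2h2aa1), chr13:23544052-23545312, plus strand (Hist1h3f), chr13:23581598-23582735, plus strand (Hist1h4d), chr13:23574381-23574952, plus strand (Hist1h2ad), chr13:23752267-23752886, plus strand (Hist1h3b) and chr13:22042460-22042944, minus strand (Hist1h2ag). Among the tested genes with a transcript in the annotation, 0.233% held such a stem-loop, and 42 of the 60 histone genes did. The median over the 42 was -1.72 and over the other 18 -1.26, with 8 and 3 members lower. An annotated transcript can stop short of the stem-loop, so the 18 cannot be taken to lack one. The stem-loop was not found in the annotated transcripts of Hist1h2ba, Hist1h1a and Hist1h1b, which were lower as well.

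Log2 fold changes of the 11 ran from -5.07 (Hist1h1b) to -1.07 (Hist1h1a). Among the H2A genes, Hist1h2ao had 1.17, 0.101 and 1.498 in IVG_d6 and 231, 8.29 and 151 in IVV (-4.90 ± 0.90 (SE), adjusted p = 0.114). Hist1h2ap had 0.498, 0.101 and 1.35 in IVG_d6 and 52.9, 3.96 and 105 in IVV (-4.44 ± 0.73 (SE), adjusted p = 0.0831). In both, the rRNA-poor IVV libraries stood far above all others and the rRNA-rich IVV library stood above every IVG_d6 library. Hist2h2aa1 had 4.95, 4.49 and 17.2 in IVG_d6 and 41.6, 22.9 and 45.7 in IVV (-1.81 ± 0.39 (SE), adjusted p = 0.151). Hist1h2ba, a variant H2B of the testis, had 1.03, 2.12 and 1.24 in IVG_d6 and 8.38, 8.29 and 11.8 in IVV (-2.48 ± 0.56 (SE), adjusted p = 0.157). The linker histone gene Hist1h1a had 69.97, 45.4 and 3.45 in IVG_d6 and 3.75, 192 and 5.95 in IVV and was led by the rRNA-rich libraries, in which IVV replicate 3 was the highest. Copies of H2A genes are near-identical, and the division of reads among them is uncertain. Without 1 library the call ended for Hist1h1a (without IVG_d6 replicate 2 or IVV replicate 3, -0.89 to -0.42) and Hist1h1b (without IVG_d6 replicate 1 or IVV replicate 3, -4.43 to -3.40). Leaving out 1 library ended the call of Hist1h2ag (without IVG_d6 replicates 1 or 3 or IVV replicates 2 or 4, -2.64 to -1.41) and Hist1h3b (without IVG_d6 replicate 1 or IVV replicate 3, -1.54 to -0.80). The call was lost, with 1 library left out, for Hist1h3f (without IVV replicate 3, -1.05) and Hist1h4d (without IVV replicate 3, -1.72).

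The 13 proteins of oxidative phosphorylation that are encoded by mitochondrial DNA are subunits of complexes I, III, IV and V. Of their genes 5 were higher and 0 lower (3.39% and 6.03% of all genes tested), 9 were in order higher and 0 lower (13.1% and 16.3%), and the median log2 fold change was 0.96 in the kind fit, 1.84 within the rRNA-rich and 0.66 within the rRNA-poor libraries. The higher genes were subunits of complex I and cytochrome b of complex III. mt-Nd5 had 2092, 1734 and 302 in IVG_d6 and 179.9, 318 and 202 in IVV (1.67 ± 0.36 (SE), adjusted p = 0.151). mt-Nd4l had 151, 62.2 and 96.4 in IVG_d6 and 27.7, 23.7 and 29.2 in IVV (1.79 ± 0.37 (SE), adjusted p = 0.140). mt-Nd6 had 102, 108 and 178 in IVG_d6 and 77.4, 17.4 and 84.04 in IVV (1.75 ± 0.37 (SE), adjusted p = 0.151). mt-Nd1 (1.01 ± 0.37 (SE), adjusted p = 0.304) and mt-Cytb (1.05 ± 0.46 (SE), adjusted p = 0.369) followed. With 1 library fewer the call was lost for mt-Cytb (without IVG_d6 replicate 1 or IVV replicate 3, 0.39 to 0.84) and mt-Nd1 (without IVG_d6 replicate 1 or IVV replicate 3, 0.51 to 0.95).

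None of the genes of complexes IV and V was a DEG. mt-Co1 had 1258, 1423 and 1668 in IVG_d6 and 1632, 786 and 1716 in IVV (log2 fold change 0.37 ± 0.28 (SE), adjusted p = 0.630). mt-Co2 had 73.3, 84.6 and 1029 in IVG_d6 and 504, 130.5 and 473 in IVV (0.17 ± 0.32 (SE), adjusted p = 0.877). mt-Atp8 had 15.7, 10.3 and 112 in IVG_d6 and 94.4, 21.9 and 65.97 in IVV (-0.21 ± 0.44 (SE), adjusted p = 0.899). Summed over the 13 genes, IVG_d6 held 7120.3, 5591 and 7101 CPM and IVV 4918, 2089 and 5007 CPM, with the groups apart and the rRNA-rich IVV library lowest. All mitochondrial genes together took 1.27% to 1.74% of counts in IVG_d6 and 0.825% to 0.925% in IVV. Of the 77 nuclear genes of oxidative phosphorylation 0 were DEGs in either direction; their median was 0.16 in the kind fit, -1.10 without the kind of library, 0.39 within the rRNA-rich and -0.54 within the rRNA-poor libraries, so that its sign depended on the kind.

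**Figure D2:**
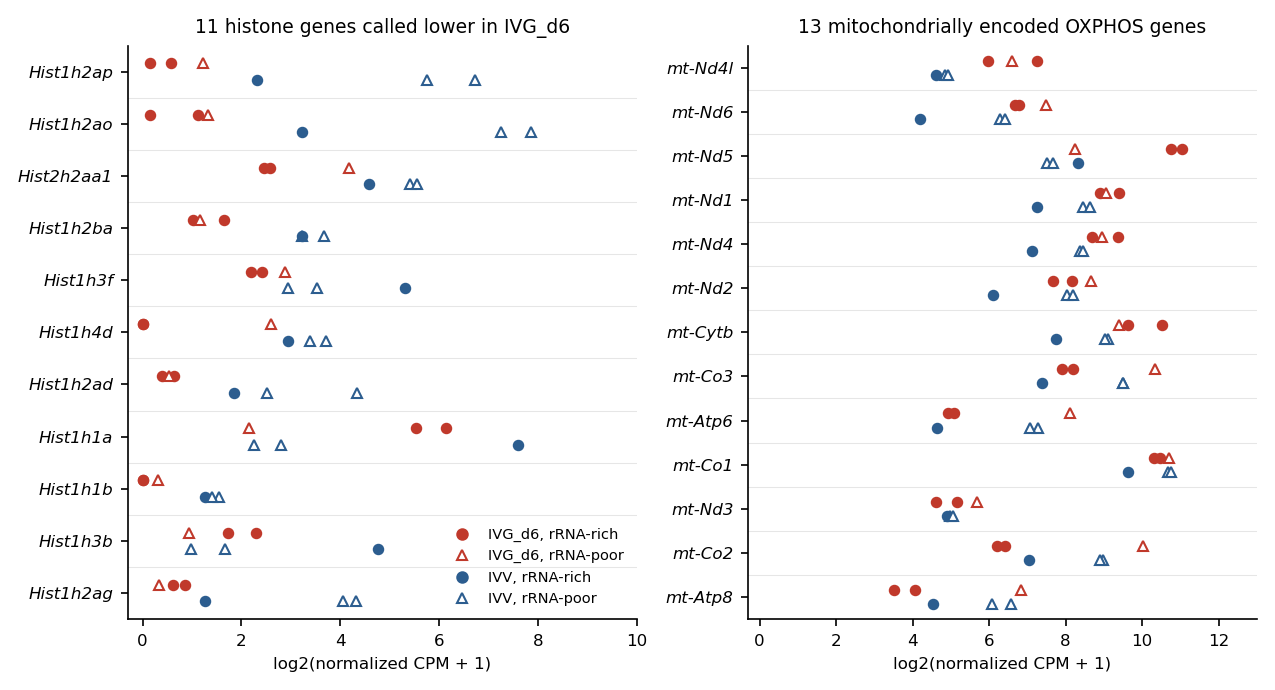
Levels of the 11 histone genes called lower in IVG_d6 (left) and of the 13 mitochondrially encoded genes of oxidative phosphorylation (right), as log2(normalized CPM + 1), 1 point per library with colours and shapes as above, ordered by P. In mt-Nd4l and mt-Nd5 the IVG_d6 libraries lie above those of IVV within each kind, and in mt-Co2 the rRNA-rich IVG_d6 libraries lie below the rRNA-rich IVV library.

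The 10 oocyte markers (Ddx4, Dazl, Zp1, Zp2, Zp3, Gdf9, Bmp15, Figla, Nobox and Oosp1) were detected in every library and summed to 16339, 18105 and 15179 CPM in IVG_d6 and 13240.0, 10379 and 12640.0 CPM in IVV; 0 were DEGs, 7 were in order higher (13.1% of all genes tested), and their median log2 fold change was 0.38. Zp2, a protein of the zona pellucida that binds sperm, had 3919, 4145 and 1403 in IVG_d6 and 1082, 1573 and 1038 in IVV (0.92 ± 0.27 (SE), adjusted p = 0.274). Zp3 had 1155, 1205 and 4441 in IVG_d6 and 3828, 722 and 3193 in IVV (0.57 ± 0.23 (SE), adjusted p = 0.337). Zp1 had 952, 1044 and 808 in IVG_d6 and 804, 1006 and 734 in IVV (-0.03 ± 0.19 (SE), adjusted p = 0.967). Gdf9 had 2812, 3739 and 4957 in IVG_d6 and 4655, 2616 and 4329 in IVV (0.29 ± 0.21 (SE), adjusted p = 0.589). Bmp15 had 5578, 6525 and 1166 in IVG_d6 and 927, 3327 and 972 in IVV (0.47 ± 0.23 (SE), adjusted p = 0.420). Kit, the receptor of the granulosa signal KITL, was the DEG among 9 growth factor and receptor genes, with 1859, 1565 and 118 in IVG_d6 and 68.9, 562 and 61.2 in IVV (1.12 ± 0.25 (SE), adjusted p = 0.157). Its levels differed more between kinds of library than between groups, and without the kind in the fit its log2 fold change was 2.35 and it was no DEG. Calls lost with 1 library fewer were those of Kit (without IVV replicate 3, 0.80). Over all genes tested 3.39% were higher and 6.03% lower.

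Of 15 oocyte transcription factors tested, Tbpl2, which stands in for the TATA-binding protein in growing oocytes, was a higher DEG with 17.2, 28.3 and 9.97 in IVG_d6 and 8.20, 5.06 and 9.98 in IVV (1.32 ± 0.53 (SE), adjusted p = 0.339). Foxo3, which restrains follicle activation, had 1529, 1563 and 168 in IVG_d6 and 184, 812 and 178 in IVV (0.32 ± 0.25 (SE), adjusted p = 0.645). Among the 16 genes of the subcortical maternal complex and the NLRP family and the 22 maternal effect and chromatin genes 0 were DEGs, with medians of -0.06 and 0.08. Padi6, needed for the cytoplasmic lattices, had 8029, 6557 and 2264 in IVG_d6 and 1930.0, 3922 and 1709.7 in IVV (0.60 ± 0.23 (SE), adjusted p = 0.317). Npm2, nucleoplasmin 2, had 656, 637 and 1321 in IVG_d6 and 1282, 633 and 1229 in IVV (0.12 ± 0.21 (SE), adjusted p = 0.873). Of the genes that store and translate maternal mRNA, Patl2, a translational repressor, was higher with 96.9, 66.2 and 103 in IVG_d6 and 43.9, 42.7 and 41.1 in IVV (1.16 ± 0.24 (SE), adjusted p = 0.142), while Eif4e1b, the cap-binding protein of oocytes, was lower with 170.0, 329.9 and 54.7 in IVG_d6 and 161, 536 and 196 in IVV (-1.59 ± 0.48 (SE), adjusted p = 0.276; -0.69 and no DEG without the kind of library). Small RNA pathway genes (24) and translation initiation factors (39) held 0 DEGs. Beside the lists of this paragraph, 3.39% of all genes tested were higher and 6.03% lower. Calls that ended without 1 library were those of Tbpl2 (without IVG_d6 replicate 2 or IVV replicates 2 or 3, 0.91 to 1.35).

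Of 26 kinases, cyclins and regulators of meiotic resumption 2 were higher and 0 lower (3.39% and 6.03% of all genes tested), and 13 were in order higher and 1 lower (13.1% and 16.3%), with a median of 0.25. Cdk1, the kinase of maturation promoting factor, had 49.9, 61.9 and 136 in IVG_d6 and 83.5, 11.6 and 86.2 in IVV (1.15 ± 0.40 (SE), adjusted p = 0.298). Wee1, which phosphorylates and restrains it, had 87.2, 72.2 and 18.7 in IVG_d6 and 10.98, 8.72 and 12.2 in IVV (1.53 ± 0.58 (SE), adjusted p = 0.324). Ccnb1 had 227, 278 and 296 in IVG_d6 and 353, 419.5 and 318 in IVV (-0.54 ± 0.27 (SE), adjusted p = 0.431). Ccnb2 had 100.5, 106 and 223 in IVG_d6 and 221, 37.1 and 181 in IVV (0.79 ± 0.33 (SE), adjusted p = 0.357), neither past the fold threshold, and the sign of the 2 cyclins differed. Of 25 cohesin and synaptonemal complex genes, Sycp3 (83.4, 83.1 and 64.9 in IVG_d6 and 40.3, 35.1 and 41.5 in IVV, 1.25 ± 0.38 (SE), adjusted p = 0.276), Sycp1 and Trip13 were higher and Syce3 was lower. Sycp3 is a lateral element of the complex that pairs chromosomes earlier in meiosis. Cenpc1, a protein of the inner kinetochore, was the DEG among 30 spindle and checkpoint genes, with 48.6, 71.9 and 16.04 in IVG_d6 and 10.1, 16.6 and 11.4 in IVV (1.15 ± 0.35 (SE), adjusted p = 0.276). Of 19 genes that hold meiotic arrest, Npr2, the granulosa receptor that makes cGMP, was the DEG: it had no count in IVG_d6 and 5.200, 1.46 and 4.02 CPM in IVV, at least 157-fold lower. Dropping 1 library took away the call of Cdk1 (without IVV replicate 3, 0.56) and Cenpc1 (without IVG_d6 replicate 2 or IVV replicate 3, 0.76 to 0.93). When 1 library was dropped, no call remained for Syce3 (without IVG_d6 replicates 1 or 3 or IVV replicate 3) and Sycp1 (without IVG_d6 replicate 2, 2.36). Without 1 library the call ended for Trip13 (without IVG_d6 replicate 1 or IVV replicates 2, 3 or 4, 0.93 to 1.60) and Wee1 (without IVV replicate 3, 0.76).

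In the follicle glycolysis is mainly the work of cumulus cells, which pass pyruvate to the oocyte. Of 33 genes of glucose and pyruvate use tested, 5 were lower and 1 higher (6.03% and 3.39% of all genes tested), and 14 were in order lower and 6 higher (16.3% and 13.1%). The median was -0.66, against -0.06 over all genes tested, with -0.24 within the rRNA-rich and -0.30 within the rRNA-poor libraries. Beside Ldha, Hk2, the inducible hexokinase, had 0.178, 0 and 0.954 in IVG_d6 and 8.12, 20.9 and 8.76 in IVV (-5.197 ± 1.30 (SE), adjusted p = 0.197). Hk1 had 0.285, 0 and 0.272 in IVG_d6 and 3.24, 10.7 and 1.30 in IVV (-4.77 ± 2.01 (SE), adjusted p = 0.358). Slc16a1, a carrier of lactate and pyruvate, had 13.3, 6.51 and 24.02 in IVG_d6 and 33.5, 41.1 and 36.00 in IVV (-1.31 ± 0.39 (SE), adjusted p = 0.274). Pdk2, which inhibits pyruvate dehydrogenase, had no count in IVG_d6 and 0.170, 1.52 and 0.713 CPM in IVV. Pgd, of the pentose phosphate pathway, was the higher DEG, with 55.6, 102 and 19.2 in IVG_d6 and 11.6, 41.7 and 9.05 in IVV (1.03 ± 0.38 (SE), adjusted p = 0.313). Leaving out 1 library ended the call of Hk1 (without IVG_d6 replicates 1, 2 or 3 or IVV replicate 3, -5.32 to -2.71) and Pgd (without IVG_d6 replicate 2 or IVV replicate 4, 0.72 to 0.91). The call was lost, with 1 library left out, for Slc16a1 (without IVG_d6 replicate 2, -0.98).

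Of 26 amino acid transporters 6 were lower and 0 higher (6.03% and 3.39% of all genes tested), and 11 were in order lower and 1 higher (16.3% and 13.1%). Their median was -1.03, against -0.06 over all genes tested (-0.45 within the rRNA-rich and -1.03 within the rRNA-poor libraries). These 6 were genes of low level in IVG_d6. Slc38a5, a glutamine carrier, had 0.641, 0 and 0 in IVG_d6 and 10.6, 5.36 and 7.46 in IVV (-5.08 ± 2.10 (SE), adjusted p = 0.353). Slc7a14 had 0, 0 and 0.348 in IVG_d6 and 12.1, 2.32 and 28.2 in IVV (-6.47 ± 2.08 (SE), adjusted p = 0.290). Slc1a5 had 0, 0 and 0.227 in IVG_d6 and 1.39, 2.44 and 0.796 in IVV (-5.06 ± 2.05 (SE), adjusted p = 0.345). Slc1a1 and Slc7a8 had no count in IVG_d6 and were at least 85.2-fold lower and at least 32.2-fold lower. Slc6a14 had 0.178, 0 and 0.121 in IVG_d6 and 1.04, 0.975 and 1.15 in IVV. Among 31 antioxidant genes 5 were lower and 1 higher (6.03% and 3.39% of all genes tested), with a median of -0.13. The lower ones were the glutathione transferases Gstm1 and Gstm2, the thioredoxin gene Txn1 and the peroxiredoxins Prdx4 and Prdx6. Gstm1 had no count in IVG_d6 and 4.20, 4.75 and 8.34 CPM in IVV (at least 230.3-fold lower), Gstm2 had 0.178, 0 and 0 in IVG_d6 and 7.27, 8.35 and 8.32 in IVV (-7.39 ± 2.04 (SE), adjusted p = 0.255). Prdx6 had 2.28, 5.10 and 7.46 in IVG_d6 and 15.3, 17.2 and 13.4 in IVV (-1.60 ± 0.48 (SE), adjusted p = 0.276). Txn1 had 13.95, 14.6 and 90.1 in IVG_d6 and 221, 27.98 and 215 in IVV (-1.04 ± 0.28 (SE), adjusted p = 0.228). Gpx3, a secreted glutathione peroxidase, was higher with 97.8, 65.02 and 80.1 in IVG_d6 and 43.3, 15.4 and 42.98 in IVV (1.36 ± 0.42 (SE), adjusted p = 0.276). With 1 library fewer the call was lost for Gpx3 (without IVV replicate 3, 0.80) and Prdx4 (without IVG_d6 replicates 2 or 3 or IVV replicates 2, 3 or 4, -1.58 to -1.18). Calls lost with 1 library fewer were those of Slc1a5 (without IVG_d6 replicates 1 or 2 or IVV replicate 3, -4.36 to -2.83) and Slc38a5 (without IVG_d6 replicates 2 or 3 or IVV replicate 3, -5.46 to -3.97). Calls that ended without 1 library were those of Slc6a14 (without IVG_d6 replicate 1 or IVV replicates 2 or 4, -3.70 to -3.39) and Txn1 (without IVG_d6 replicates 1 or 3, -0.96 to -0.85).

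Of 29 imprinted genes 6 were lower and 1 was higher (6.03% and 3.39% of all genes tested), and 12 were in order lower and 2 higher (16.3% and 13.1%). Their median was -0.90, against -0.06 over all genes tested, with -0.36 within the rRNA-rich and -0.60 within the rRNA-poor libraries. Nap1l5 had 1.07, 3.18 and 0.560 in IVG_d6 and 8.93, 13.3 and 16.1 in IVV (-3.28 ± 0.86 (SE), adjusted p = 0.220). Meg3, a long non-coding RNA, had 2.49, 0.202 and 6.22 in IVG_d6 and 13.5, 22.6 and 13.5 in IVV (-2.60 ± 0.98 (SE), adjusted p = 0.318). Zrsr1 had 0, 0 and 0.0908 in IVG_d6 and 1.58, 0.122 and 1.61 in IVV (-4.54 ± 1.47 (SE), adjusted p = 0.284). Igf2, a growth factor, had 0 in every IVG_d6 library and 0, 5.24 and 0.0419 in IVV. Peg3 was higher, with 155, 22.8 and 12.1 in IVG_d6 and 4.39, 31.5 and 3.86 in IVV (1.45 ± 0.54 (SE), adjusted p = 0.312). Of 21 immediate early genes Jun (0, 0 and 0.121 in IVG_d6 and 2.98, 14.02 and 0.943 in IVV, -6.31 ± 2.06 (SE), adjusted p = 0.284), Ier2 and Junb were lower and Dusp1, a phosphatase of MAP kinases, was higher (218, 154 and 54.7 in IVG_d6 and 53.7, 67.2 and 40.95 in IVV, 1.28 ± 0.45 (SE), adjusted p = 0.298). The values of Junb outside IVV replicate 3 were under 1 CPM. Dropping 1 library took away the call of Ier2 (without IVG_d6 replicate 1 or IVV replicate 3, -4.04 to -2.37) and Igf2 (without IVV replicate 3). When 1 library was dropped, no call remained for Junb (without IVG_d6 replicates 1, 2 or 3 or IVV replicate 3, -4.68 to -1.18) and Meg3 (without IVV replicate 3, -1.52). Without 1 library the call ended for Peg3 (without IVG_d6 replicates 1 or 3 or IVV replicate 3, 0.96 to 1.34).

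In the PI3K, mTOR and FOXO list 3 of 28 were higher and 0 lower. Over all genes tested 3.39% were higher and 6.03% lower, the shares beside which this and the next lists stand. Gsk3b, a kinase held in check by AKT, had 56.1, 95.7 and 29.1 in IVG_d6 and 11.5, 24.2 and 17.6 in IVV (1.43 ± 0.36 (SE), adjusted p = 0.199). Prkaa2, a catalytic subunit of the energy sensor AMPK, had 69.5, 89.1 and 14.1 in IVG_d6 and 13.5, 15.7 and 10.04 in IVV (1.16 ± 0.43 (SE), adjusted p = 0.313). Pdpk1, which activates AKT, had 313, 186 and 72.3 in IVG_d6 and 52.5, 47.2 and 41.7 in IVV (1.10 ± 0.44 (SE), adjusted p = 0.339). Of 30 apoptosis and DNA damage genes Mcl1, an anti-apoptotic BCL2 relative, had 41.9, 19.9 and 14.4 in IVG_d6 and 6.18, 5.06 and 5.24 in IVV (2.08 ± 0.58 (SE), adjusted p = 0.263), and Mdm4 and Chek1, an inhibitor of p53 and a checkpoint kinase, were higher by 1.27 and 1.42 on the log2 scale. Within the rRNA-rich and the rRNA-poor libraries the values were 2.30 and 0.25 for Mdm4 and 2.53 and 0.23 for Chek1. Bid, a pro-apoptotic protein, was lower, with 0.06 within the rRNA-rich and -2.76 within the rRNA-poor libraries. Mdm4 and Bid were not in order. Of 33 heat shock and endoplasmic reticulum stress genes Sel1l, the partner of Syvn1 in protein degradation at the endoplasmic reticulum, was higher with 50.04, 82.3 and 34.98 in IVG_d6 and 14.2, 14.9 and 13.3 in IVV (1.53 ± 0.38 (SE), adjusted p = 0.197), as was Trib3, and Xbp1 was lower. Sel1l was above its kind in IVV in every library, as Syvn1 was. Of 28 cholesterol genes Srebf1, a regulator of lipid synthesis, had 110.2, 247 and 162 in IVG_d6 and 78.6, 81.9 and 61.6 in IVV (1.37 ± 0.39 (SE), adjusted p = 0.263), and Pmvk was higher as well. Of 30 genes of fatty acid use Acsl4 was higher, with 51.4, 34.3 and 19.8 in IVG_d6 and 9.50, 17.4 and 10.9 in IVV (1.13 ± 0.30 (SE), adjusted p = 0.222), and Fabp3, Acads and Hadh were lower. Fabp3, a fatty acid carrier, had no count in IVG_d6 and 1.60, 1.52 and 3.58 CPM in IVV. Leaving out 1 library ended the call of Acads (without IVG_d6 replicate 3 or IVV replicates 2, 3 or 4, -3.17 to -2.79) and Bid (without IVG_d6 replicates 2 or 3 or IVV replicates 2 or 4, -2.12 to -1.55). The call was lost, with 1 library left out, for Chek1 (without IVG_d6 replicate 2 or IVV replicate 3, 0.87 to 0.98) and Hadh (without IVG_d6 replicates 1, 2 or 3 or IVV replicate 3, -4.51 to -2.85). With 1 library fewer the call was lost for Mdm4 (without IVV replicate 3, 0.75) and Pdpk1 (without IVG_d6 replicates 1 or 3 or IVV replicate 3, 0.44 to 1.22). Calls lost with 1 library fewer were those of Pmvk (without IVG_d6 replicate 2 or IVV replicates 2 or 3, 2.32 to 3.61) and Prkaa2 (without IVG_d6 replicate 2 or IVV replicate 3, 0.56 to 0.95). Calls that ended without 1 library were those of Srebf1 (without IVG_d6 replicate 2, 0.90) and Trib3 (without IVG_d6 replicate 2 or IVV replicate 3, 3.79 to 6.76). Dropping 1 library took away the call of Xbp1 (without IVG_d6 replicates 1 or 2 or IVV replicate 3, -4.23 to -1.80).

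Of 82 cytosolic ribosomal protein genes 4 were lower (Rps26, Rps15, Rpl35a and Rpl3) and 0 higher (6.03% and 3.39% of all genes tested), and 33 were in order lower and 1 higher (16.3% and 13.1%). The median was -0.25 in the kind fit, -1.20 without the kind of library, -0.06 within the rRNA-rich and -0.87 within the rRNA-poor libraries. Rps26 had 34.8, 36.1 and 109 in IVG_d6 and 422, 77.8 and 438 in IVV (-1.32 ± 0.31 (SE), adjusted p = 0.179). Rps15 had 32.6, 32.6 and 173 in IVG_d6 and 454, 96.6 and 481 in IVV (-1.34 ± 0.32 (SE), adjusted p = 0.190). Summed, ribosomal proteins held 5795, 7292 and 18794 CPM in IVG_d6 and 34009, 6551 and 35196 CPM in IVV. The rRNA-poor IVG_d6 library thus lay below both rRNA-poor IVV libraries, while the rRNA-rich libraries of both groups lay together. Processed copies of these genes are common, and how reads that match several copies were counted is not given in the sources used here. Mitochondrial ribosomal proteins held 3 lower (Mrpl30, Mrpl54 and Mrpl23) and 1 higher (Mrps26) of 78, and their median was -0.01. Neither share was above that of all genes tested. Among 40 ribosome biogenesis genes Rrp1 was lower and Taf1c higher. Proteasome subunits (45) held Psmb5 as higher, with 54.5, 109 and 119 in IVG_d6 and 67.6, 13.7 and 55.6 in IVV (1.85 ± 0.43 (SE), adjusted p = 0.171), and Psmb10 as lower. When 1 library was dropped, no call remained for Mrpl23 (without IVG_d6 replicates 1 or 3 or IVV replicate 3, -1.11 to -0.91) and Mrpl54 (without IVG_d6 replicate 2 or IVV replicate 3, -0.88 to -0.80). Without 1 library the call ended for Mrps26 (without IVG_d6 replicate 2 or IVV replicates 3 or 4, 0.62 to 1.21) and Psmb10 (without IVG_d6 replicate 3 or IVV replicates 2, 3 or 4, -2.85 to -2.12). Leaving out 1 library ended the call of Rpl3 (without IVG_d6 replicates 2 or 3 or IVV replicates 2 or 4, -1.06 to -0.92) and Rpl35a (without IVG_d6 replicates 2 or 3 or IVV replicate 3, -1.29 to -0.73). The call was lost, with 1 library left out, for Rps15 (without IVV replicate 3, -0.96) and Rps26 (without IVG_d6 replicate 3, -0.89). With 1 library fewer the call was lost for Taf1c (without IVG_d6 replicates 2 or 3 or IVV replicates 3 or 4, 1.69 to 2.16).

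Of 31 genes of mRNA deadenylation and decay, Xrn1, the exonuclease of capless mRNA, had 43.7, 59.1 and 24.1 in IVG_d6 and 9.27, 21.5 and 12.8 in IVV (1.17 ± 0.29 (SE), adjusted p = 0.197), Ythdf1, a reader of m6A, was higher as well, and Tut4, which adds uridine to mRNA ends, had 0.427, 1.67 and 0.348 in IVG_d6 and 5.95, 7.92 and 8.80 in IVV (-3.56 ± 1.21 (SE), adjusted p = 0.297) and was lower with Meioc. Of 14 DNA methylation genes Mbd3, a subunit of the NuRD complex, had 17.7, 11.3 and 27.2 in IVG_d6 and 63.1, 30.5 and 60.6 in IVV (-1.04 ± 0.34 (SE), adjusted p = 0.284), and Tdg, a DNA glycosylase, had no count in IVG_d6 and 0.831, 4.51 and 0.775 CPM in IVV. Dnmt1, the maintenance methyltransferase, had 3567, 4205 and 831 in IVG_d6 and 693, 2843 and 602 in IVV (0.47 ± 0.22 (SE), adjusted p = 0.409). Among 29 actin and cortex genes Myh10 and Daam1 were lower, and among 11 gap junction and adhesion genes Gjb2 was lower, with 5.87, 0 and 3.72 in IVG_d6 and 10.98, 41.5 and 9.66 in IVV (-2.58 ± 1.18 (SE), adjusted p = 0.393). Gja4, the connexin that joins the oocyte to its granulosa cells, had 435, 574 and 485 in IVG_d6 and 628, 517 and 693 in IVV (-0.24 ± 0.21 (SE), adjusted p = 0.667). Of 16 genes of fertilization and egg activation Cd81 was lower, with no count in any IVG_d6 library or in IVV replicate 3. Beside the lists of this paragraph, 3.39% of all genes tested were higher and 6.03% lower. Calls lost with 1 library fewer were those of Cd81 (without IVG_d6 replicate 3) and Daam1 (without IVG_d6 replicates 1 or 3 or IVV replicate 3, -0.99 to -0.10). Calls that ended without 1 library were those of Gjb2 (without IVG_d6 replicate 1 or IVV replicates 2, 3 or 4, -2.68 to -2.25) and Mbd3 (without IVG_d6 replicates 2 or 3 or IVV replicate 3, -0.93 to -0.89). Dropping 1 library took away the call of Meioc (without IVG_d6 replicates 2 or 3 or IVV replicates 2, 3 or 4, -2.14 to -1.65) and Myh10 (without IVG_d6 replicates 1 or 3 or IVV replicate 4, -1.003 to -0.91). When 1 library was dropped, no call remained for Tdg (without IVV replicate 3) and Tut4 (without IVG_d6 replicate 3, -3.11). Without 1 library the call ended for Ythdf1 (without IVV replicates 2 or 4, 1.04 to 1.18).

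**Figure D3:**
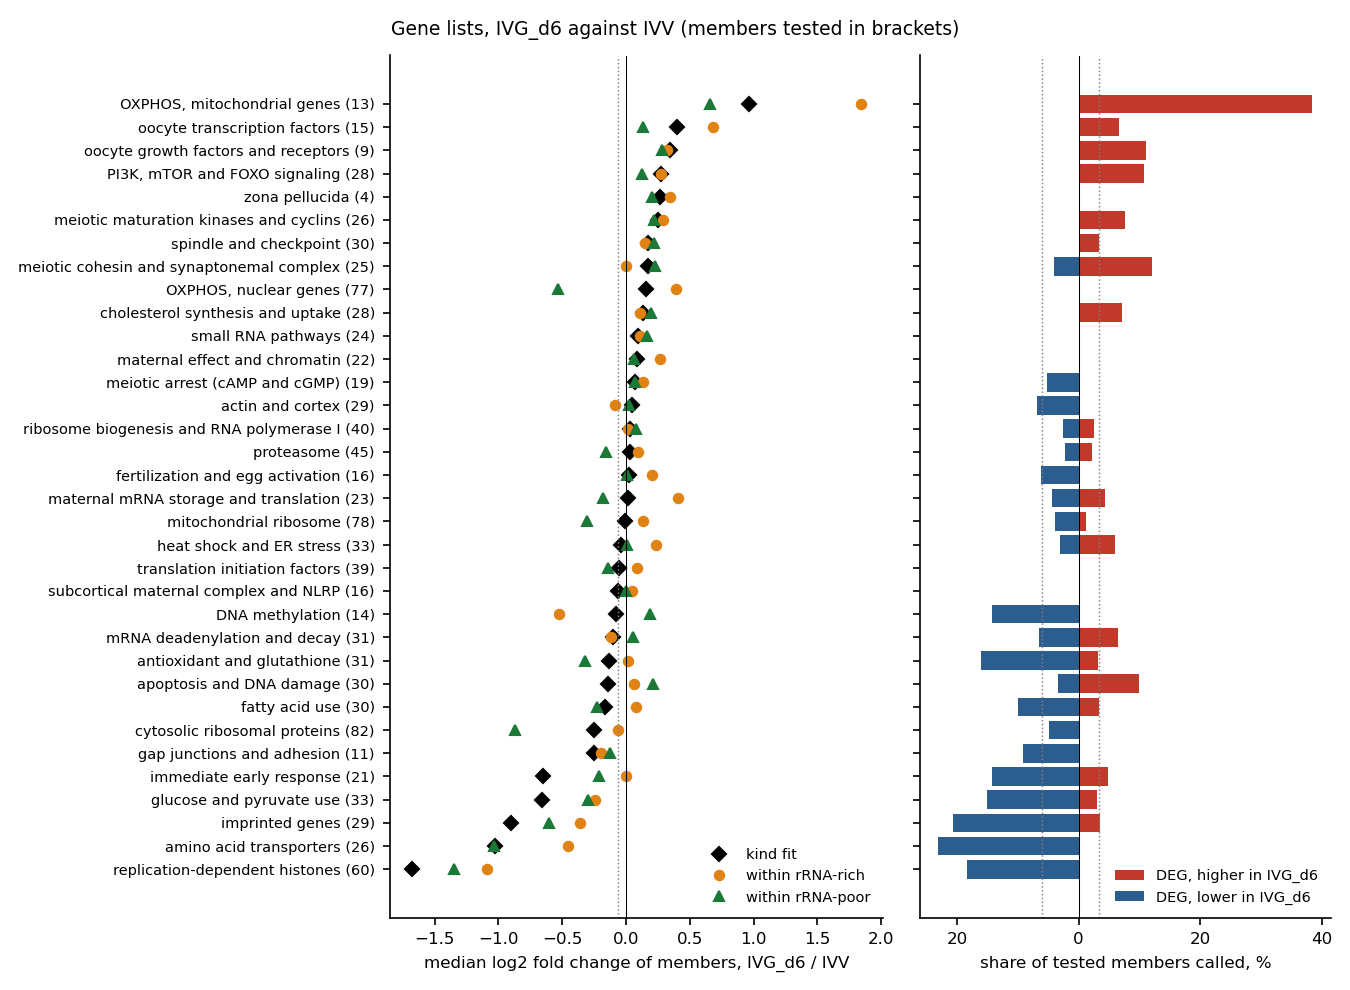
Median log2 fold change of each gene list other than the cell type markers (left; diamonds, kind fit; circles, within rRNA-rich; triangles, within rRNA-poor libraries; dotted line, all genes) and the share of its tested members called higher (red, to the right) or lower (blue, to the left), in % (right; dotted lines, all genes at 3.39% and 6.03%), for IVG_d6 against IVV. Among these lists, mitochondrially encoded genes stand at the top with 5 of 13 higher, and histones, amino acid transporters and imprinted genes at the bottom.

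Oocytes were freed of cumulus cells with hyaluronidase before they were pooled. In bulk libraries fewer cells of a type and less RNA per cell cannot be told apart. The 13 granulosa and cumulus markers summed to 122, 159 and 56.5 CPM in IVG_d6 and 208, 189 and 272 CPM in IVV, so the groups did not overlap. Of the 12 tested, 4 had every IVG_d6 value below every IVV value and 1 the reverse (7.84% and 4.09% of all genes tested), and the other members overlapped. As DEGs, Inhba was lower (0.712, 0 and 0.515 in IVG_d6 and 12.9, 34.8 and 10.8 in IVV, -5.48 ± 1.07 (SE), adjusted p = 0.124) and Has2, with 4.27, 0 and 0.727 in IVG_d6 and 0, 0 and 0.126 in IVV, was higher. The median was -0.58, against -0.06 over all genes tested, with -0.29 within the rRNA-rich and -2.47 within the rRNA-poor libraries. Inha had 11.8, 32.4 and 1.51 in IVG_d6 and 83.8, 40.9 and 123 in IVV (-2.18 ± 1.27 (SE), adjusted p = 0.496). Gja1, the connexin of granulosa cells, had 28.4, 15.8 and 0.227 in IVG_d6 and 42.3, 37.1 and 48.2 in IVV (-2.63 ± 1.47 (SE), adjusted p = 0.479). Foxl2, which defines them, had 0.427, 0 and 0.121 in IVG_d6 and 5.35, 1.58 and 6.52 in IVV (-3.82 ± 1.82 (SE), adjusted p = 0.412). These 3 and Inhba were the 4 that lay lower in every IVG_d6 library, and Inha, Gja1 and Foxl2 were no DEGs. Cyp19a1, the aromatase of granulosa cells, lay higher in every IVG_d6 library, with 13.1, 12.1 and 15.5 in IVG_d6 and 9.19, 5.67 and 10.4 in IVV (0.63 ± 0.47 (SE), adjusted p = 0.622), and was no DEG. Nr5a2 (51.7, 59.2 and 24.6 in IVG_d6 and 26.02, 44.01 and 33.99 in IVV) overlapped between the groups, as did Kitl and Fshr. Amh had 11 counts in IVG_d6 replicate 2, 5 in IVV replicate 2 and 0 in the other 4 libraries. Leaving out 1 library ended the call of Has2 (without IVG_d6 replicate 1 or IVV replicates 2 or 3, 2.93 to 4.41).

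The 8 markers of theca and stroma summed to 0, 11.8 and 1.86 CPM in IVG_d6 and 20.03, 21.7 and 9.79 CPM in IVV, and 4 of the 7 tested were lower (Cyp17a1, Col1a2, Dcn and Col1a1). Of all genes tested 6.03% were lower. The sum in IVG_d6 replicate 2 came from Lhcgr alone, which had 0, 11.8 and 0.499 in IVG_d6 and 1.24, 0 and 1.99 in IVV, and lay above that of IVV replicate 4. The 6 macrophage markers summed to 0, 0 and 1.53 CPM and 15.7, 3.17 and 8.84 CPM, with 3 of 4 lower (Lyz2, Csf1r and Ptprc), and the 4 globin genes of blood to 0, 0 and 0.0757 CPM and 0.597, 0.549 and 2.64 CPM, with 1 of 3 lower (Hba-a1). Lyz2, Ptprc, Adgre1, Cyp17a1 and Lum were at 0 in all 3 IVG_d6 libraries. They were also at 0 in some IVV libraries, Lyz2 in replicate 3, Ptprc in replicate 4, Adgre1 in replicates 3 and 4, Cyp17a1 in replicate 2 and Lum in replicates 2 and 3. The macrophage marker Cd68 had 0, 0 and 82 counts in IVG_d6 and 81, 0 and 84 in IVV. Ccnd2, Inhbb, Ldha, Hk2, Npr2, Gstm1, Zeb2 and 6 amino acid transporters were lower in IVG_d6, as the summed granulosa and cumulus markers were. The part of somatic RNA in those results was not tested. The histone and mitochondrial genes were read in the same libraries, and the part of somatic RNA in their values was likewise not tested. The call was lost, with 1 library left out, for Col1a1 (without IVG_d6 replicates 1 or 3 or IVV replicate 3, -6.94 to -2.31) and Col1a2 (without IVG_d6 replicate 3 or IVV replicate 3, -7.55 to -4.53). With 1 library fewer the call was lost for Csf1r (without IVG_d6 replicate 1 or IVV replicate 3, -4.10 to -2.88) and Cyp17a1 (without IVG_d6 replicate 3 or IVV replicate 3). Calls lost with 1 library fewer were those of Dcn (without IVG_d6 replicates 1 or 3 or IVV replicate 3, -6.68 to -4.59) and Hba-a1 (without IVG_d6 replicate 3 or IVV replicate 4). Calls that ended without 1 library were those of Lyz2 (without IVG_d6 replicate 3) and Ptprc (without IVG_d6 replicates 1, 2 or 3 or IVV replicates 2 or 3).

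**Figure D4:**
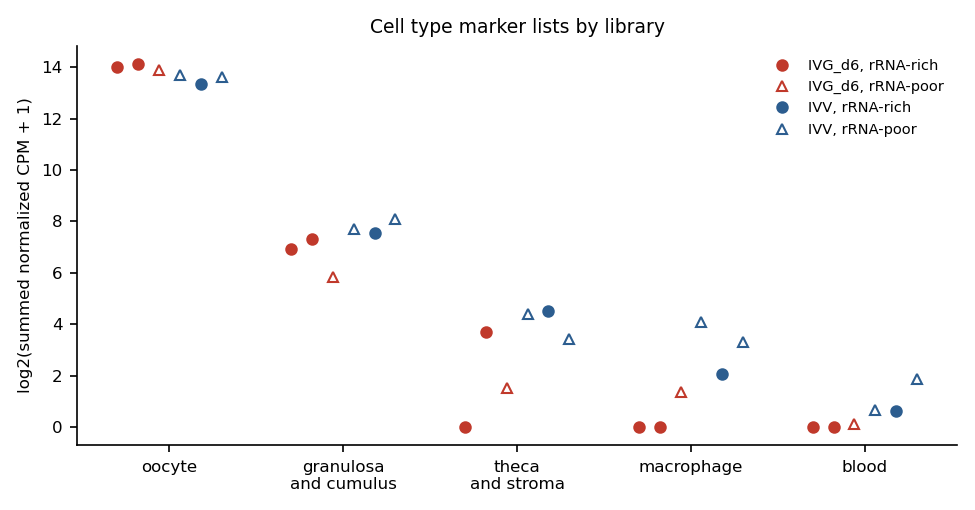
Summed levels of the oocyte and somatic cell marker lists in each library, as log2(summed normalized CPM + 1), with colours and shapes as above. The oocyte markers lie between 10379 and 18105 CPM in all 6 libraries, and the granulosa and cumulus markers lie lower in each IVG_d6 library (56.5 to 159 CPM) than in each IVV library (189 to 272 CPM).

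The like-kind readings shared a minority of their DEGs in the same direction, a larger share than was called among all genes tested. Within the rRNA-rich libraries 3302 genes were DEGs (16.3%), 1514 higher (7.49%) and 1788 lower (8.85%). Within the rRNA-poor libraries 926 were DEGs (4.58%), 442 higher (2.19%) and 484 lower (2.4%). An adjusted p under 0.05 was found for 77 (0.381%) and 29 (0.144%) genes. The rRNA-rich reading has 1 IVV library and the rRNA-poor reading 1 IVG_d6 library, which were assumed to vary like the other cells of the fit. Without IVG_d6 replicate 1 the rRNA-rich count rose to 5797. Higher in both were 95 genes, which is 6.27% of the rRNA-rich and 21.5% of the rRNA-poor higher DEGs, and lower in both were 103 (5.76% and 21.3%). Opposite calls were made for 48 genes higher within the rRNA-rich and lower within the rRNA-poor libraries. They were 3.17% of the rRNA-rich higher and 9.92% of the rRNA-poor lower DEGs, against 2.4% and 7.49% of all genes tested. The 27 genes of the reverse pattern were 1.51% of the rRNA-rich lower and 6.11% of the rRNA-poor higher DEGs, against 2.19% and 8.85%. Across the 8416 genes of at least 10 CPM the 2 log2 fold changes had a Pearson r of 0.12 and a Spearman rho of 0.16, and 56.8% had the same sign. Genes are not independent replicates, and the 2 readings share no library. The difference between the readings had an adjusted p under 0.05 for 19 genes (0.094%) and an unadjusted P under 0.05 for 2267 (11.2%). Genes on which both readings were close, picked after their values were seen, were Ldha (-4.18 within the rRNA-rich and -4.46 within the rRNA-poor libraries), Ivns1abp (-2.44 within the rRNA-rich and -2.75 within the rRNA-poor libraries), Mgat4a (1.73 within the rRNA-rich and 1.498 within the rRNA-poor libraries) and Xrn1 (1.26 within the rRNA-rich and 1.12 within the rRNA-poor libraries). mt-Nd5 (2.59 within the rRNA-rich and 0.66 within the rRNA-poor libraries) and Cdk1 (2.27 within the rRNA-rich and 0.69 within the rRNA-poor libraries) kept the sign with a larger value in the rRNA-rich libraries.

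**Figure D5:**
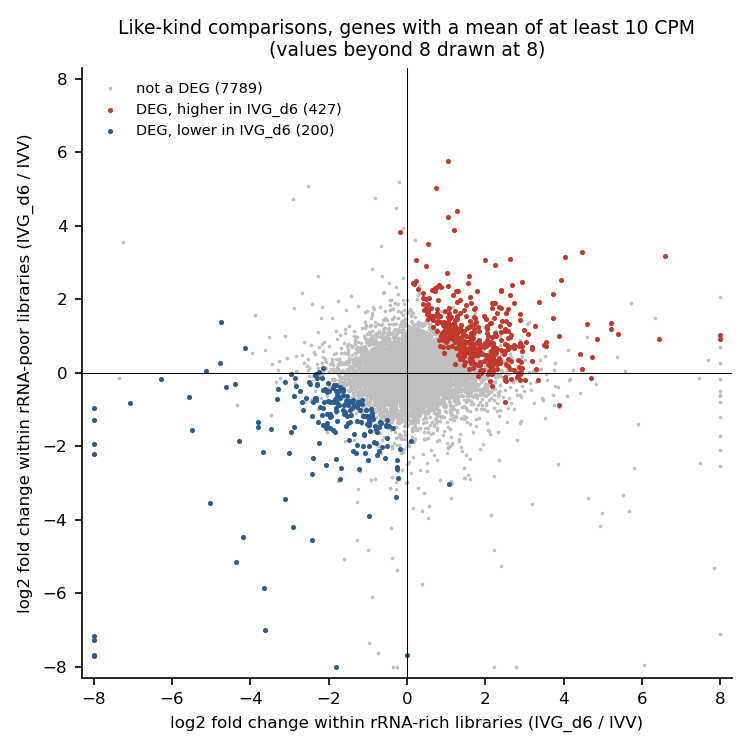
Log2 fold change of IVG_d6 over IVV within rRNA-rich libraries (x axis) and within rRNA-poor libraries (y axis) for 8416 genes with a mean of at least 10 CPM, 1 point per gene (red, 427 higher DEGs of the kind fit; blue, 200 lower; grey, others; values beyond 8 are drawn at 8). DEGs gather in the quadrants of like sign, as the fit over both kinds chooses them, while the other genes spread along both axes.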

How the data were processed

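Poly(A)-primed SMART-Seq2 libraries of 6 pooled GV oocytes each were sequenced as paired ends. According to the methods of the study and the submitters' processing notes, adaptors and low-quality bases were removed, reads were mapped to mm10 with HISAT2 and quantified with StringTie. The deposited values are raw counts per Ensembl gene, 1 file per library; how reads were assigned to genes, whether strand was used and which annotation release served are not given in the sources used here. Per the labels the authors also named FastQC and edgeR.

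From these counts, 12 libraries (IVV, IVG_d6, IVG_d10 and IVG-NT_d10, 3 each) were fitted together, so that they share 1 estimate of the spread. The 3 IVG-NT_d6 libraries were left out for their spread. In earlier results of these data, those of 1 kind correlated less with each other than in the other groups. With all 15 libraries the kind fit gave 1217 DEGs in place of 1904, and 0 genes in place of 7 with an adjusted p under 0.05. Genes were filtered with filterByExpr (minimum count 10), normalized with TMM and tested with edgeR's quasi-likelihood test (R 4.3.3, edgeR 4.0.16, limma 3.58.1), 2-sided, with Benjamini-Hochberg adjustment over all 20206 genes. The group fit held the group alone and the kind fit the group and the kind of library (CT010467.1 over or under 5% of counts); like-kind contrasts came from a fit of group by kind. Log2 fold changes are IVG_d6 over IVV. The SE of each is its size divided by the square root of the F of its quasi-likelihood test. CPM are counts scaled to a common library size with TMM. A gene without a count in a group was set against a floor of 3 counts over that group; such limits cover counting error only, and PCR copies are not independent molecules. Symbols, coordinates and transcripts were taken from GENCODE vM21, which named 99.5% of identifiers. Named genes were, of protein-coding DEGs of at least 10 CPM in order within both kinds, the 12 with the smallest P in each direction, likewise 3 other transcripts in each direction, and up to 4 examples per gene list, DEGs first and then the most abundant; further list members that were DEGs, and other members, were named after their values were seen. The members, lists and tests were chosen with earlier results of these data known. Scripts were tested on simulated counts. No 2 libraries agreed within sampling noise (chi-square per gene 52.7 or more). P-values measure the pooled spread between libraries in the fit of 12, 3 per group, and so do not rest on IVG_d6 and IVV alone. Alternatives were DESeq2 1.42.0, edgeR's exact test, other size factors, other filters, other sets of libraries, a replicate block and each library left out.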

Additional observations from a re-analysis of the deposited data

Results flagged for a closer look

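The log2 fold change of IVG_d6 over IVV differed between the rRNA-rich and the rRNA-poor libraries for 19 genes by the interaction test of group and kind (adjusted p 0.0174 to 0.0494), which were picked for that test result. In 17 of them the signs were opposite. The difference, rRNA-rich minus rRNA-poor on the log2 scale, was above 0 for 14 genes and below 0 for 5. Umodl1, the most abundant of the 19, had 3783, 3988 and 1131 CPM in IVG_d6 and 1317, 896 and 1342 CPM in IVV, with log2 fold changes of 2.12 and -0.23 and a difference of 2.35. Ypel5 had 907, 950.3 and 325 CPM in IVG_d6 and 364, 131 and 339 CPM in IVV (difference 2.93), and Shroom4, an actin-binding protein, 280.0, 359 and 4.74 CPM in IVG_d6 and 24.7, 105 and 23.9 CPM in IVV (difference 3.96). The ribosomal protein gene Rpl26 had 41.9, 44.8 and 55.3 CPM in IVG_d6 and 392.3, 9.27 and 385 CPM in IVV, a difference of 5.04, and processed copies of it make the count uncertain. Among the other genes above 0 were Esrrb (3.48), Gdap1 (4.11), Gm19299 (4.76), Gm42947 (11.46), Klhl18 (3.83), Mafg (21.37), Mid1-ps1 (11.34), Rps2 (4.13), Rsc1a1 (6.25) and Supt6 (3.13). In Mafg, Gm42947 and Mid1-ps1 1 library was at 0 counts, and the fitted size depends on the prior count. Below 0 stood Cic (-4.06), Incenp (-3.29), Iqcg (-5.46), Lrrc8a (-5.58) and Scmh1 (-2.84); Cic, a transcriptional repressor, had 272, 225 and 33.5 CPM in IVG_d6 and 2.90, 268 and 1.43 CPM in IVV. In these 19 genes the kind of library and the group were read from the same 6 libraries, 1 arm of each reading is a single library, and the cause was not tested.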

How the results depend on the processing

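The number of DEGs depended on which genes and libraries were used. Against 1904 in the kind fit, it was 1217 with all 15 libraries, 962 with only the 6 libraries of both groups, 3530 without a filter on low counts and 627 (427 higher, 200 lower) for genes of at least 10 CPM, a filter chosen after seeing the data. It ran from 1332 (without IVV replicate 3) to 2965 (without IVG_d6 replicate 3) when each library was left out. Without the kind of library, 1419 DEGs became 428 at 10 CPM (347 higher, 81 lower), 2321 without the filter and 768 with the 6 libraries, with a range of 929 (without IVG_d6 replicate 2) to 2861 (without IVG_d6 replicate 3). Without IVV replicate 3 it was 1969, of which 1224 were higher, so that the balance turned.

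The 7 genes with an adjusted p under 0.05 in the kind fit became 996 with DESeq2's Wald test, 692 without the filter, 13 at 10 CPM, and 0 with all 15 libraries, with the 6 libraries alone or with a replicate block, and ranged from 4 (without IVV replicate 4) to 11 (without IVV replicate 3). Within rRNA-poor libraries 926 DEGs became 283 with all 15 libraries, with a range of 654 to 769; within rRNA-rich libraries 3302 became 1449 with all 15 and 5065 without the filter, with a range of 4190 to 5797. These alternatives of the like-kind readings were added after seeing the data.

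Replicates 2 and 3 occur in both groups. In both numbers 1 library is rRNA-rich and the other rRNA-poor, so that the correlations of their deviations from the group means (-0.513 and -0.798) do not show whether they share an experiment, and the sources used here do not say that they do. With a replicate block the kind fit gave 1555 DEGs (895 higher, 660 lower) and the group fit 687 (161 higher, 526 lower).

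Of the values of leading genes under all alternatives, 407 kept their direction and side of the threshold and 13 lost the call, with all 15 libraries or without the kind of library. Of other named genes 1723 kept them, 267 lost the call, 11 gained it and 2 reversed, and of further called list members, added after seeing the data, 191 kept them and 75 lost the call. Both reversals were of Hba-a1, with 0.019 by DESeq2's Wald test and a range of -7.37 to 2.68 (without IVG_d6 replicate 3) when each library was left out. The causes were not tested. Low counts and 3 libraries per group, of unequal kind, limit what could be called.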
